A study of Mus musculus with 6 samples.

Results

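Expression of 30 complement and coagulation genes was compared between the epidermis of newborn mice labelled Paxbp1 knockout and that of mice labelled wild type, with 3 RNA-seq libraries in each group. The members were the entries of the deposited table of 54532 genes whose symbol is on a fixed list: 11 complement components, 4 complement receptors and regulators, 4 coagulation factors, 8 protease receptors and anticoagulants, and 3 genes of plasminogen activation. All 30 were found, and 28 were among the 16471 genes tested after the filter on low counts. The epidermis was separated from the dermis with Dispase II overnight, and total RNA was sequenced. The labels do not say which part of Paxbp1 was deleted, which cells carried the deletion, or whether each library came from 1 animal.

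Complement is a cascade of plasma proteins that marks surfaces for uptake or lysis. The C1q complex, the lectins and the alternative pathway converge on C3, and fragments of C3 and C5 attract leukocytes through G protein-coupled receptors. Coagulation starts when tissue factor, the product of F3, binds factor VII and activates factor X, while plasminogen activators dissolve the clot. Most circulating complement and coagulation proteins are made in the liver, but macrophages, fibroblasts and keratinocytes also transcribe some of these genes.

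In the knockout libraries 23 of the 28 tested members had a higher level than in the wild type and 2 a lower one, by edgeR's quasi-likelihood test at a threshold of 0.05 on the p-value after Benjamini-Hochberg adjustment across the 16471 genes. Of those 16471 genes, 28.7% were called higher and 25.1% lower. The groups did not overlap for 26 of the 28, 24 of them higher (31.9% of all genes) and 2 lower (30.4%); in either direction this held for 62.3% of all genes. Of the 28, 14 were called higher with a fitted log2 fold change of at least 4, as were 7.52% of all genes. The members with the largest wild type levels per gene length, F3 and Gas6, were the 2 that fell, and F2r, F2rl1 and Cd59a were not called. The median log2 fold change was 4.04 over the members tested and -0.03 over all genes tested. Of the 28, 19 exceeded the filter level (0.588 CPM) in every library. C3, C4b, Masp1, C5ar1, F5, F7, F10, Procr and Tfpi2 exceeded it in every knockout library but not in every wild type library. For these genes the filter thus favoured a difference. The counts and the median are therefore a description of these 28 genes.

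**Figure D1:**
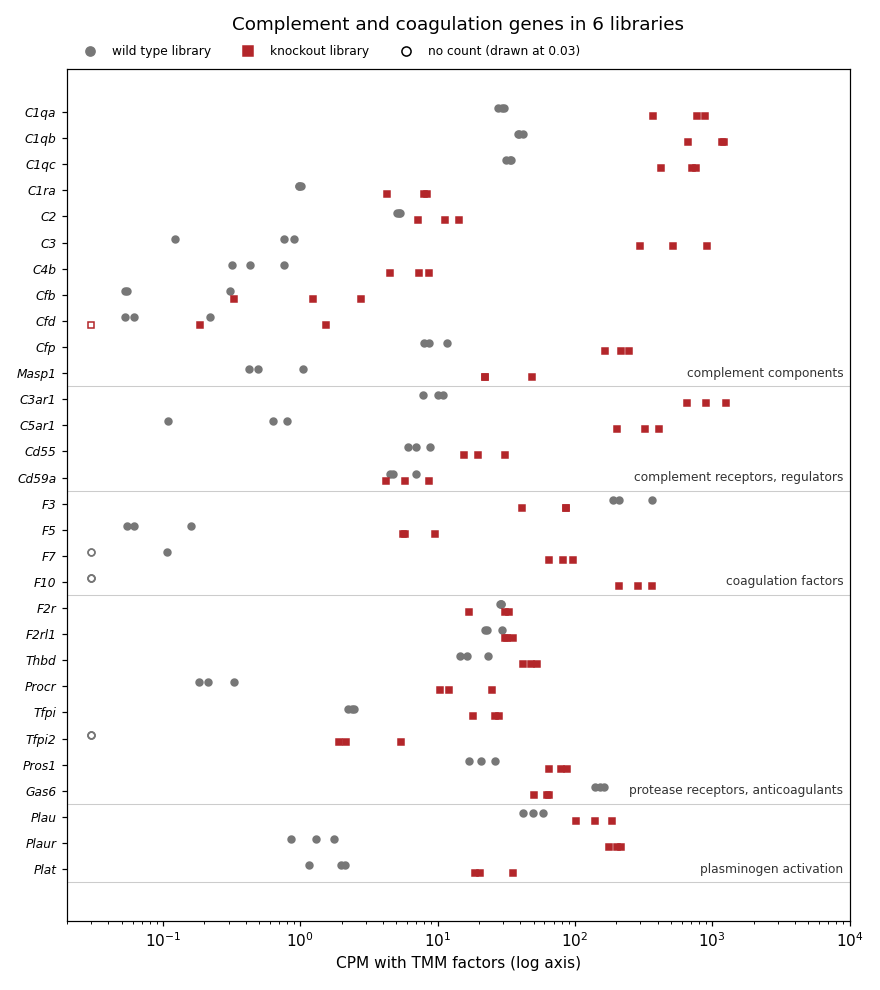
Levels of the 30 members in each library, in CPM (counts scaled to library size) with TMM factors on a log axis, grouped by role. Each symbol is 1 library, grey circles are wild type, red squares are knockout, and open symbols are libraries without a count. The knockout libraries lie to the right of the wild type libraries for most genes, and to their left for F3 and Gas6.

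The libraries held 16315317 to 17816327 counts. Counts of Paxbp1 itself were 2007, 1159 and 1467 for the wild type (replicates 1, 2 and 3) and 2370, 1127 and 1125 for the knockout (edgeR adjusted p = 0.783), so its gene total does not check the genotype labels. Markers of several cell types differed between the groups. All 10 macrophage markers were higher, with a summed level of 455 to 538 CPM in wild type, against 9709 to 17607 CPM in knockout libraries; the most abundant was Mrc1, and Cd163 had no count in 2 wild type libraries. Of 10 neutrophil markers 7 were tested and all 7 were higher (2.12 to 3.22 against 3411 to 8403 CPM in sum), while the granule genes Elane, Mpo and Camp had too few counts to test. All 7 fibroblast markers (249.8 to 260.4 against 3585 to 9396 CPM) and all 6 erythroid markers (3.87 to 8.01 against 956 to 1915 CPM) were higher. All 6 basal keratinocyte markers (18798 to 20676 against 1859 to 4810 CPM) and all 6 suprabasal markers (66065 to 120182 against 2908 to 7292 CPM) were lower. In bulk tissue, fewer cells of a type and less RNA per cell cannot be told apart, and the part of these shifts in each result below was not tested.

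The stretch of 250 bases before the start site is shown for 7 of the called members. They are C1qb and C1qc, which encode 2 chains of C1q, the receptor genes C5ar1, C3ar1 and Plaur, the coagulation gene F10, and F3, which fell. C3, F5 and F7, which also rose, held none of the searched motifs and are not shown, so the 7 do not represent the members. Sequences are from RefSeq (GRCm38.p6), 5′ to 3′ on the strand of the gene. Capitals mark the letters of 3 searched motifs on either strand: AGGAAGT or its complement ACTTCCT (the core bound by ETS factors such as PU.1), TGANTCA (the AP-1 site) and TATAAA (the TATA box).
C1qb, chr4:136886201-136886450, minus strand: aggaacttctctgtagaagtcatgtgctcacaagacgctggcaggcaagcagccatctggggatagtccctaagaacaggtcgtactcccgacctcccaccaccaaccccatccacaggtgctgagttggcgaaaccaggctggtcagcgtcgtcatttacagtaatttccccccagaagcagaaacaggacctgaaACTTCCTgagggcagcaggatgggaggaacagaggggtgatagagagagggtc
C1qc, chr4:136892915-136893164, minus strand: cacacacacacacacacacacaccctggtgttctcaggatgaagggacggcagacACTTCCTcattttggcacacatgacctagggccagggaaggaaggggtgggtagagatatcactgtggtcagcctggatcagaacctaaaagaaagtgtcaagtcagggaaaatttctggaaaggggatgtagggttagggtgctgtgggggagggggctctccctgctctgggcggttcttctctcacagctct
C5ar1, chr7:16259339-16259588, minus strand: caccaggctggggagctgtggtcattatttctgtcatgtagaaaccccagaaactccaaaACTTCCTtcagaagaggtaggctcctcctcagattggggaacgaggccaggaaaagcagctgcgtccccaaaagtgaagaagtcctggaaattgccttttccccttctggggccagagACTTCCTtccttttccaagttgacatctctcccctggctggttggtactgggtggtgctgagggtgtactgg
C3ar1, chr6:122856158-122856407, minus strand: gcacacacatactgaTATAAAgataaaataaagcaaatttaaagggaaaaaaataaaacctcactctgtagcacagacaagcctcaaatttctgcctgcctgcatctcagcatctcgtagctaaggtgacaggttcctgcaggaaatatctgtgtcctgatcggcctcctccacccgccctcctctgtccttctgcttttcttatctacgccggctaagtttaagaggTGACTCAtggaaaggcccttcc
Plaur, chr7:24462233-24462482, plus strand: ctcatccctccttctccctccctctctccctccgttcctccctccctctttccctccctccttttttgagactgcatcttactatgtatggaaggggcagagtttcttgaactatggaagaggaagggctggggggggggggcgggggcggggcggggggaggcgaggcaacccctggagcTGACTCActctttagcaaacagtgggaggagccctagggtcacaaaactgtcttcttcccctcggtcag
F3, chr3:121723287-121723536, plus strand: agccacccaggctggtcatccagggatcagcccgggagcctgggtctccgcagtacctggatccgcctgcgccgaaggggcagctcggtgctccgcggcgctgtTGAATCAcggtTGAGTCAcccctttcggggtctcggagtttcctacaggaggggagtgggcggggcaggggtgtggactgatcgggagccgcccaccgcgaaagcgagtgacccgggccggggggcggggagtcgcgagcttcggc
F10, chr8:13037058-13037307, plus strand: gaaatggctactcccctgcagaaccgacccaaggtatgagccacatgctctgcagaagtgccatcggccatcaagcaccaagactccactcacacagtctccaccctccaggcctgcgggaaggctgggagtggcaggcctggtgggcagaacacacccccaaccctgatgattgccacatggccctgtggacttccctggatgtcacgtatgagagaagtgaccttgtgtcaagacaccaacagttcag

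RefSeq promoter entries were at hand for 21 of the 30 members (24 start sites). AGGAAGT was found before 4 of the 24 start sites (C1qb, C1qc, C5ar1 and 1 of Tfpi), and in 7.69% of 32851 promoters of the same length. C5ar1 held it at 2 positions, from -190 to -184 and from -72 to -66 relative to the RefSeq start site. The deposited annotation extends this minus-strand gene to 16259540, so both matches lie inside the gene as annotated there. For 20 of the 24 entries, the bases after the start site matched the start of a GENCODE transcript of the same gene. TGANTCA was found before 6 of the 24 start sites (C3ar1, F2r, F3, Plaur, Procr and Tfpi2) and in 6.75% of all promoters. F3 held 2 copies, from -146 to -140 and from -135 to -129. TATAAA was found before 2 start sites (C3ar1 and Tfpi) and in 12.4% of all promoters, and TTCNNNGAA, the palindrome bound by STAT factors, before that of Pros1 and in 7.02%. None of the 4 motifs was in the 250 bases before F10. CG dinucleotides numbered 5 or fewer in 15 of the 24 member promoters and in 49.6% of all promoters. Genes that rose, fell or were not called all appear among the matches, and a match of letters is a description, not a binding site.

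The 3 genes of C1q, the recognition molecule of the classical pathway, lie side by side on chromosome 4 of mm10 and moved alike. C1qb (136880129 to 136886187, minus strand) is followed by C1qc after a gap of 3616 bases and by C1qa after a further 2851 bases. The level of C1qa was 27.6, 30.2 and 29.7 CPM for the wild type (replicates 1, 2 and 3, the order used throughout) and 368, 893 and 777 CPM for the knockout. C1qb had 42.1, 38.8 and 39.2 CPM in the wild type and 664, 1219 and 1170 CPM in the knockout. C1qc had 31.6, 33.7 and 34.4 CPM against 423, 766 and 716 CPM. All 3 were present at an even level in each wild type library, and knockout replicate 1 was the lowest of its group for each. The log2 fold changes were 4.54 ± 0.37, 4.67 ± 0.34 and 4.26 ± 0.31 (SE, edgeR adjusted p = 2.62e-06, 1.11e-06 and 1.22e-06). On deposited FPKM, which scales by gene length, C1qa stood at 0.685 to 0.815 of C1qb in wild type, against 0.580 to 0.766 in knockout libraries, so the groups overlapped, while C1qc stood at 0.423 to 0.494 of C1qb in wild type, against 0.345 to 0.359 in knockout libraries.

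The summed FPKM of the 3 C1q genes was 50.0% to 58.1% of the summed FPKM of the 10 macrophage markers among wild type libraries, against 50.8% to 68.5% among knockout libraries. The ratio thus overlapped between the groups, although the C1q genes and the markers were both higher in the knockout. Cfp, which encodes properdin, the stabilizer of the alternative pathway convertase, also kept an overlapping ratio to these markers (2.83% to 4.81% against 2.98% to 4.12%). It rose from 9.44 ± 2.01 to 211 ± 41.6 CPM (SD, n = 3; log2 change 4.48 ± 0.27, edgeR adjusted p = 4.07e-07). The marker Cd163 rose from 1 count over the wild type libraries, so the 10 markers did not rise by 1 common factor, and the ratio depends on which markers are summed.

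C3, the central component on which all activation routes converge, was among the members with the largest rises. It had 0.764, 0.122 and 0.902 CPM in the wild type (14, 2 and 17 counts) and 299, 517 and 920 CPM in the knockout. Every knockout library was far above every wild type library, and the knockout libraries differed among themselves by 3.08-fold. The log2 fold change was 9.88 ± 0.68 (edgeR adjusted p = 8.08e-07). In relation to markers, C3 was 0.0147% to 0.107% of macrophage marker FPKM in wild type, against 2.50% to 4.25% in knockout libraries, and 0.0584% to 0.412% against 10.8% to 14.8% of fibroblast marker FPKM.

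Masp1, C1ra and C4b rose from low wild type levels. Masp1, a serine protease of the lectin pathway, went from 0.652 ± 0.337 to 30.9 ± 15.5 CPM, and knockout replicate 3 (48.8 CPM) stood above the other knockout libraries, both at 22.0 CPM. C1ra, the protease that is activated when C1q binds, rose from 0.989 ± 0.0163 to 6.85 ± 2.26 CPM (edgeR adjusted p = 0.000152). C4b, cleaved by C1s, rose from 0.503 ± 0.232 to 6.81 ± 2.09 CPM (log2 change 3.74 ± 0.47, edgeR adjusted p = 6.01e-05). Its near-identical neighbour C4a had 2.19 ± 0.992 and 2.46 ± 1.45 CPM (edgeR adjusted p = 0.798), and reads can be split between the copies, so the value of either is uncertain.

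C2, Cfb and Cfd had low counts in both groups. C2, the protease that pairs with C4b, had 5.02, 5.20 and 5.36 CPM in the wild type and 7.25, 14.3 and 11.3 CPM in the knockout, with no overlap (log2 change 1.08 ± 0.30, edgeR adjusted p = 0.0116). It was not called without knockout replicate 2 (edgeR adjusted p = 0.0516). Cfb, the alternative pathway protease, had 1, 5 and 1 counts in the wild type and 22, 5 and 45 in the knockout and did not pass the filter. With no filter, Cfb was called higher (log2 change 3.36, edgeR adjusted p = 0.000333). Cfd, which encodes adipsin and is a known adipocyte product, had 4, 1 and 1 counts against 27, 0 and 3, and was not called with no filter (edgeR adjusted p = 0.0917). Of 5 adipocyte markers only Fabp4 was tested, and it was higher, with 8070, 6574 and 2781 counts in the knockout libraries. Plin4 had 31, 7 and 9 counts there, Adipoq (36) and Plin1 (54) were counted in knockout replicate 1 alone, and Lep had no count in any library. Their part in the Cfd counts was not tested.

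For C2 and Cfb the counts depend on the annotation. The genes lie 85 bases apart on chromosome 17, and another annotated gene, Gm20547 (34856412 to 34882042, minus strand), covers 79.5% of the exonic bases of Cfb and 42.8% of those of C2 in GENCODE M21. Gm20547 had no count in any of the 6 libraries. How reads in shared exons were handled is not given in the sources used here, so the levels of C2 and Cfb may leave out part of their reads.

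The receptors for the C3 and C5 fragments rose far more than the membrane regulators that protect cells from complement. C3ar1 had 10.97, 7.76 and 10.03 CPM in the wild type and 653, 895 and 1263 CPM in the knockout (log2 change 6.61 ± 0.38, edgeR adjusted p = 3.08e-07). C5ar1 had 0.109, 0.795 and 0.637 CPM against 203, 322 and 408 CPM (log2 change 9.24 ± 0.54, edgeR adjusted p = 3.41e-07). For both, the order of the knockout libraries was the same, with replicate 1 lowest and replicate 3 highest. On FPKM, C3ar1 exceeded C5ar1 by 5.83- to 60.0-fold among wild type libraries, against 1.66- to 1.92-fold among knockout libraries, and the wild type ratios rest on 2 to 13 counts of C5ar1. As a share of macrophage marker FPKM, C3ar1 was 1.11% to 1.81% in wild type, against 5.99% to 6.96% in knockout libraries. C5ar1, which neutrophils also carry, was 0.0302% to 0.191% and 3.40% to 3.77% of macrophage marker FPKM, but 2.83% to 26.8% and 0.986% to 1.83% of neutrophil marker FPKM. The wild type neutrophil ratios set the few C5ar1 counts against markers also near the floor (2.12 to 3.22 CPM in sum). The direction of that change therefore cannot be read.

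Among the regulators, Cd55, which encodes decay-accelerating factor, had 6.98, 6.11 and 8.86 CPM in the wild type and 15.7, 19.5 and 31.0 CPM in the knockout (log2 change 1.59 ± 0.30, edgeR adjusted p = 0.00101). Cd59a, an inhibitor of the membrane attack complex, had 6.93, 4.52 and 4.72 CPM against 5.83, 8.69 and 4.21 CPM. These groups overlapped and Cd59a was not called (log2 change 0.21 ± 0.35, edgeR adjusted p = 0.639). Its paralog Cd59b had 0.869 ± 0.175 and 0.426 ± 0.181 CPM and was not called either (edgeR adjusted p = 0.153). Against the FPKM of basal keratinocyte markers, Cd59a was 0.0250% to 0.0431% in wild type, against 0.142% to 0.273% in knockout libraries, where those markers themselves were lower.

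**Figure D2:**
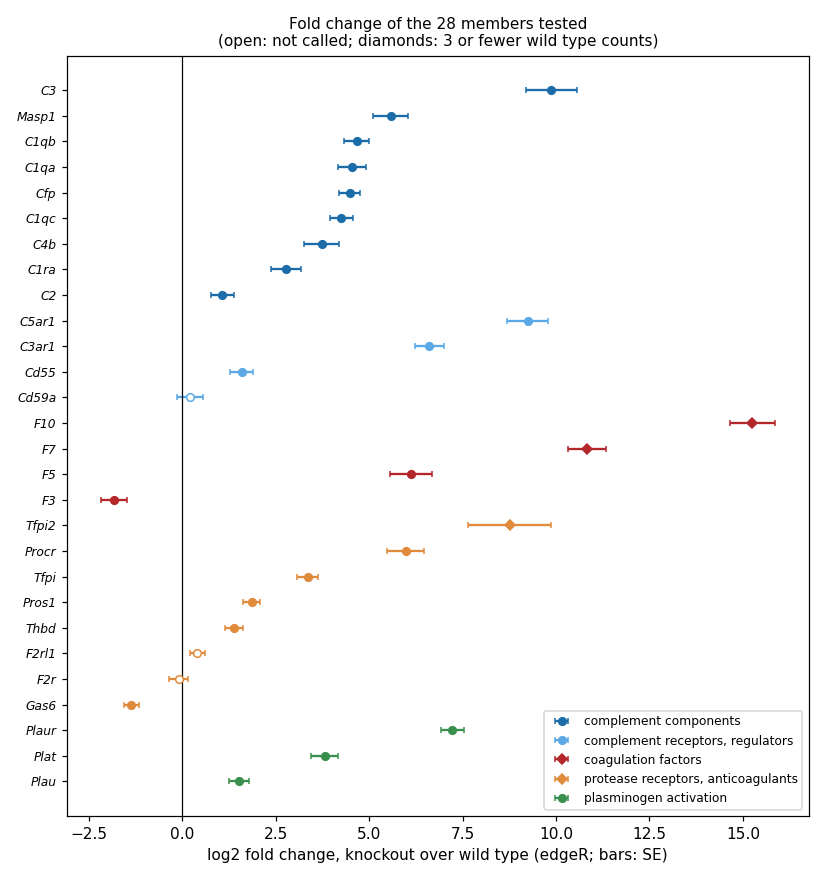
Log2 fold change of the 28 members tested, knockout over wild type, with standard errors as bars, ordered by size within each role. Open circles are the 3 members not called, and the diamonds (F10, F7 and Tfpi2) had 3 or fewer wild type counts, so that their position depends on the small count added by the fit. F3 and Gas6 are the only called members left of 0.

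Coagulation factor genes moved in opposite directions. F3, which encodes tissue factor, the membrane protein that starts coagulation, had 210, 361 and 190 CPM in the wild type and 86.4, 86.2 and 41.0 CPM in the knockout. No knockout library reached the lowest wild type library, and wild type replicate 2 was the highest of all. The log2 fold change was -1.83 ± 0.35 (edgeR adjusted p = 0.00104). F3 had the highest wild type level of all 30 members per gene length (98.1 ± 37.4 FPKM), and 27.96 ± 10.1 FPKM in the knockout. Relative to basal keratinocyte markers it was 0.760% to 1.431% of their FPKM in wild type, against 1.435% to 1.90% in knockout libraries, and relative to suprabasal markers 0.293% to 0.336% and 1.28% to 1.55%. The groups did not overlap relative to either list, though by a narrow margin for the basal markers.

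F10 and F7, which encode the factor X and factor VII that act with tissue factor, are neighbours on chromosome 8, 1498 bases apart on the plus strand. F10 (13037308 to 13056676) had no count in any wild type library and 3694, 5528 and 4646 counts in the knockout, that is 209, 361 and 288 CPM. Against a floor of 3 counts over the wild type group, it was at least 5039-fold higher (edgeR adjusted p = 2.18e-07). F7 (13026034 to 13035809) had 0, 0 and 2 wild type counts and 1144, 1471 and 1319 in the knockout. The ratio was 2144, with an exact 95% counting interval from 593 to 17711 (edgeR adjusted p = 1.77e-07). Knockout replicate 2 was the highest and replicate 1 the lowest for both genes.

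Both genes are best known from the liver, and hepatocyte markers were measured in the same libraries. The summed level of 6 hepatocyte markers was 0.183 to 0.371 CPM in wild type, against 5.16 to 32.3 CPM in knockout libraries. Alb, the only one tested, was higher, with 1 count over the wild type libraries and 97, 73 and 377 in the knockout (edgeR adjusted p = 4.03e-05). Of the others, Ahsg had 4 counts over the wild type group against 124, Apoa1 8 against 45, Apoa2 1 against 20, and Ttr and Serpina1a 0 against 10 and 5. The part of hepatocyte RNA in the F7 and F10 results was not tested. As a share of macrophage marker FPKM, F10 was 2.50% to 3.81% and F7 1.04% to 1.497% in the knockout libraries.

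F5, which encodes the cofactor of factor X, had 1, 1 and 3 wild type counts and 98, 88 and 154 in the knockout. It rose from 0.0916 ± 0.0586 to 6.95 ± 2.25 CPM (log2 change 6.11 ± 0.56, edgeR adjusted p = 5.73e-06). Platelets carry factor V, and of 6 platelet markers 4 were higher, with a sum of 5.84 to 8.73 CPM in wild type, against 1004 to 1505 CPM in knockout libraries. Pf4 made up most of the knockout sum, whereas Itga2b was the highest in wild type (3.61 to 5.13 CPM). Ppbp (0.948 to 49.3 CPM), Itga2b (4.32 to 15.2 CPM) and Treml1 (0 against 96 counts) were also higher, Gp1ba (1.04 and 0.533 CPM) was not called, and Gp9 (0 against 46 counts) was not tested. Their part in the F5 result was not tested.

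Neither of the 2 protease receptor genes among the members, F2r and F2rl1, was called. F2r, which encodes the thrombin receptor PAR1, had 29.1, 28.2 and 29.0 CPM in the wild type and 17.0, 30.7 and 33.2 CPM in the knockout. The knockout libraries lay on both sides of the wild type, and F2r was not called (log2 change -0.09 ± 0.26, edgeR adjusted p = 0.783). F2rl1, which encodes PAR2, a receptor for trypsin-like proteases on keratinocytes, had 29.5, 22.8 and 22.0 CPM against 35.6, 31.8 and 31.2 CPM. Its groups did not overlap, as for 31.9% of all genes tested in that direction, but it was not called (log2 change 0.41 ± 0.21, edgeR adjusted p = 0.123). The 2 genes lie 76575 bases apart on chromosome 13. F2rl1 was 0.0811% to 0.121% of basal keratinocyte marker FPKM in wild type, against 0.487% to 1.33% in knockout libraries.

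Thbd, Procr, Tfpi, Tfpi2 and Pros1 rose, and Gas6 fell. Thbd, which encodes thrombomodulin, had 16.4, 23.4 and 14.6 CPM in the wild type and 52.7, 42.1 and 47.5 CPM in the knockout (log2 change 1.39 ± 0.24, edgeR adjusted p = 0.000510). Procr, the receptor gene for protein C, had 0.327, 0.183 and 0.212 CPM against 24.8, 12.02 and 10.3 CPM (log2 change 5.98 ± 0.50, edgeR adjusted p = 2.90e-06), and knockout replicate 1 was the highest. Endothelial cells make both, and of 7 endothelial markers 3 were higher (4.56 to 6.17 against 184 to 354 CPM in sum). Pecam1 made up most of the knockout sum, whereas Egfl7 was the highest in wild type (2.81 to 3.61 CPM). Cdh5 (1 against 353 counts, edgeR adjusted p = 6.72e-06) and Kdr (16 against 391 counts, edgeR adjusted p = 6.56e-05) were higher too. Egfl7 was not called (edgeR adjusted p = 0.0605), and Tek (24 against 22 counts), Cldn5 (2 against 25) and Emcn (0 against 5) were not tested. The part of endothelial RNA in the Thbd and Procr results was not tested.

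Tfpi, which encodes the inhibitor of the tissue factor complex, rose from 2.36 ± 0.116 to 24.2 ± 5.40 CPM (log2 change 3.35 ± 0.28, edgeR adjusted p = 2.64e-06). Its paralog Tfpi2 had no wild type count and 38, 83 and 31 counts in the knockout, at least 55.2-fold higher (edgeR adjusted p = 0.000180). F3 exceeded Tfpi by 184- to 327-fold on FPKM among wild type libraries, against 3.36- to 10.4-fold among knockout libraries, as F3 fell and Tfpi rose.

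Pros1 and Gas6 encode related vitamin K-dependent proteins, of which Pros1 makes protein S, a cofactor of protein C, and both serve as ligands of the TAM receptor tyrosine kinases. Pros1 had 20.6, 26.1 and 17.0 CPM in the wild type and 64.8, 87.1 and 79.3 CPM in the knockout (log2 change 1.86 ± 0.23, edgeR adjusted p = 5.88e-05). Gas6 had 162, 153 and 140 CPM against 64.3, 50.1 and 62.4 CPM (log2 change -1.36 ± 0.20, edgeR adjusted p = 0.000211). Neither gene overlapped between the groups. Gas6 exceeded Pros1 by 9.39- to 13.2-fold on FPKM in the wild type libraries and stood at 0.923 to 1.59 of it in the knockout. Relative to basal keratinocyte markers Gas6 was 0.555% to 0.715% in wild type, against 0.827% to 2.87% in knockout libraries.

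The receptors of these ligands were measured as well. Mertk rose from 11.7 ± 5.04 to 142 ± 46.9 CPM (log2 change 3.60 ± 0.37, edgeR adjusted p = 1.34e-05) and Axl from 43.8 ± 2.21 to 99.4 ± 16.5 CPM (log2 change 1.18 ± 0.20, edgeR adjusted p = 0.000587). Tyro3 had 80.1, 88.3 and 72.9 CPM in the wild type and 74.2, 34.8 and 25.02 CPM in the knockout and was not called (log2 change -0.85, edgeR adjusted p = 0.0595). With the replicate number as a block, Tyro3 was called lower, and likewise without knockout replicate 1, whose level was close to the wild type.

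All 3 genes of plasminogen activation rose. Plaur, the receptor gene for urokinase, had 1.31, 0.856 and 1.75 CPM in the wild type and 177, 216 and 202 CPM in the knockout (log2 change 7.23 ± 0.32, edgeR adjusted p = 1.65e-07). Its knockout libraries differed by 1.22-fold, the narrowest range among the 23 members that rose. Plau, which encodes urokinase itself, had 49.3, 58.8 and 41.6 CPM against 101, 187 and 140 CPM (log2 change 1.52 ± 0.26, edgeR adjusted p = 0.000561). Plat, which encodes tissue plasminogen activator, rose from 1.75 ± 0.515 to 24.8 ± 9.11 CPM (edgeR adjusted p = 7.05e-06). The ligand and its receptor thus changed by different amounts. Plau exceeded Plaur by 26.3- to 76.0-fold on FPKM in wild type, and stood at 0.632 to 0.958 of it in knockout libraries.

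**Figure D3:**
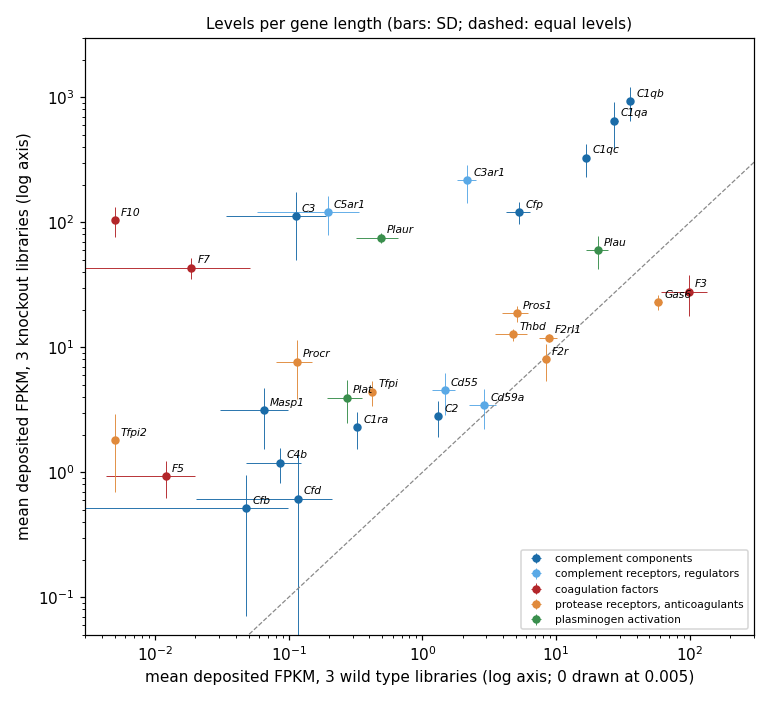
Mean deposited FPKM of the 30 members in the wild type (horizontal) and knockout (vertical) libraries, on log axes, with SD over 3 libraries as bars and colours for the roles. The dashed line marks equal levels. F3 and Gas6 lie below the line, the C1q genes at the upper right, and F10 and Tfpi2, listed at 0 in the wild type, at the left edge.

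Ordered per gene length, the members changed places. In the wild type, F3 (98.1 ± 37.4 FPKM) was followed by Gas6 (58.0 ± 3.72), C1qb (35.9 ± 1.05), C1qa (27.4 ± 1.72), Plau (20.6 ± 3.70) and C1qc (16.8 ± 0.961). In the knockout the order was C1qb (931 ± 283 FPKM), C1qa (649 ± 264), C1qc (327 ± 96.0), C3ar1 (217 ± 72.9), Cfp (121 ± 23.8), C5ar1 (120 ± 40.7), C3 (112 ± 62.1) and F10 (104 ± 27.5), of which the last 4 differed by less than their SDs. F3 took rank 12 there. Complement components made up 25.2% to 33.1% of the summed FPKM of all 30 members among wild type libraries, against 69.6% to 76.4% among knockout libraries. Coagulation factors made up 27.8% to 40.5% and 4.95% to 7.57%, although their summed level was higher in the knockout (73.7 to 141 FPKM against 145 to 216 FPKM).

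Knockout libraries differed among themselves. Of the 23 members that rose, 17 had their lowest knockout level in replicate 1, 4 in replicate 2 and 2 in replicate 3, while replicate 2 was highest for 13, replicate 3 for 7 and replicate 1 for 3. Among the macrophage markers replicate 1 was also the lowest, with 9709 CPM in sum against 13827 and 17607 CPM. The coefficient of variation in the knockout ran from 9.80% for Plaur to 61.9% for Tfpi2.

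**Figure D4:**
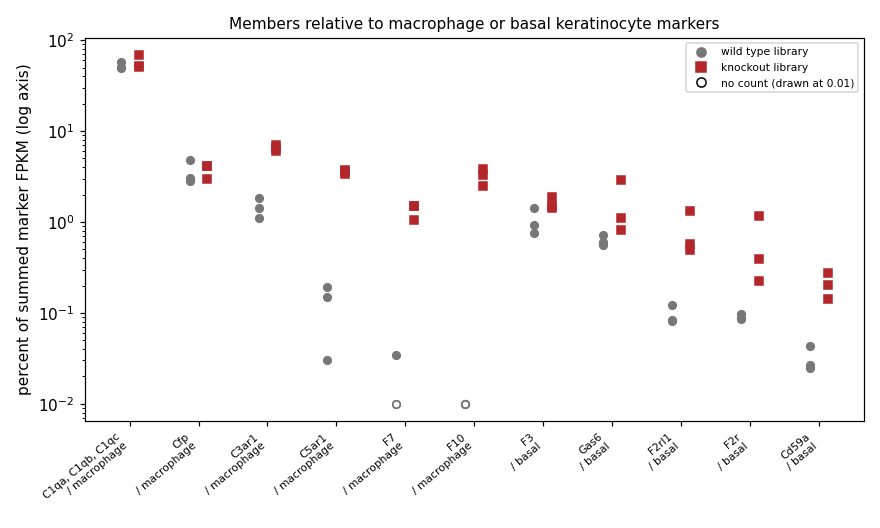
Deposited FPKM of members as a percentage of the summed FPKM of 10 macrophage markers or 6 basal keratinocyte markers, in each library, on a log axis. Grey circles are wild type, red squares knockout and open circles libraries without a count. The C1q genes and Cfp overlap between the groups, while C3ar1, C5ar1, F7 and F10 are higher in the knockout also relative to macrophage markers.

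Other genes of the same pathways were examined from lists of 81 genes that are not members. Of these, 43 were tested, 28 were higher and 4 lower. Of the 28, 11 exceeded the filter level in every knockout library but not in every wild type library, so the filter favoured a difference. These counts are therefore a description. Of 20 other complement components 6 were tested, with 3 higher and 1 lower. The collectin gene Colec12 rose from 0.262 ± 0.136 to 76.1 ± 32.7 CPM, the ficolin gene Fcna from 0.0904 ± 0.114 to 22.6 ± 6.64 CPM and C1rl from 0.950 ± 0.169 to 11.6 ± 3.71 CPM. C1s1, the protease partner of C1r, fell from 13.2 ± 2.05 to 2.80 ± 0.679 CPM (log2 change -2.23 ± 0.30, edgeR adjusted p = 0.000100), while C1ra rose. Of the terminal pathway, C7 and C9 had no count in any library, C6 had 4 counts over the wild type libraries and 5 over the knockout, and C8g was not called (edgeR adjusted p = 0.479).

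Of 20 other complement receptors and regulators 15 were tested, with 9 higher and 2 lower. The integrin subunit genes Itgam (7.80 ± 1.54 to 424 ± 82.2 CPM) and Itgb2 (5.17 ± 0.620 to 372 ± 114 CPM), which together form complement receptor 3, rose. Clu, which encodes clusterin, fell from 130 ± 54.6 to 11.8 ± 5.52 CPM (log2 change -3.46 ± 0.43, edgeR adjusted p = 5.36e-05), and the regulator gene Susd4 fell from 9.23 ± 1.31 to 2.83 ± 1.83 CPM (edgeR adjusted p = 0.00580).

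Of 27 other coagulation genes 11 were tested, with 7 higher and 1 lower. F13a1, the subunit gene of the clot-stabilizing transglutaminase and a known macrophage and platelet product, had 1.69, 3.55 and 3.71 CPM in the wild type and 1056, 1682 and 2537 CPM in the knockout (log2 change 9.20 ± 0.56, edgeR adjusted p = 3.89e-07). Mcfd2, which serves the export of factors V and VIII, rose from 48.2 ± 7.56 to 226 ± 45.6 CPM. F2rl2, another receptor gene of the thrombin family, was counted once in the wild type (1 read) and 104 times in the knockout, a ratio of 113 with an exact 95% counting interval from 19.9 to 4520. Vkorc1l1, a vitamin K reductase gene, fell from 53.3 ± 2.47 to 37.5 ± 1.22 CPM (log2 change -0.51 ± 0.19, edgeR adjusted p = 0.0385), and the call was lost when any 1 wild type library was left out (edgeR adjusted p = 0.0823, 0.108 and 0.139 without replicates 1, 2 and 3). It was also lost without knockout replicate 2 (edgeR adjusted p = 0.0664) or 3 (edgeR adjusted p = 0.0834), with both libraries numbered 1 left out (edgeR adjusted p = 0.0599), with no filter (edgeR adjusted p = 0.107) and with DESeq2 (adjusted p = 0.0859). The log2 change of Vkorc1l1 was -0.70 to -0.43 over all 17 alternatives. The higher genes of this list numbered 12 when knockout replicate 2, wild type replicate 1 or wild type replicate 2 was left out, and 14 with no filter or with DESeq2.

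Of 11 other genes of fibrinolysis 8 were tested, with 7 higher and 1 not called. The clearance receptor gene Lrp1 rose from 237 ± 46.2 to 1593 ± 792 CPM and S100a10, which with annexin A2 binds plasminogen at the cell surface, from 217 ± 38.9 to 705 ± 174 CPM. Plasminogen itself, Plg, had no wild type count and 3 counts over the knockout libraries.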

How the data were processed

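RNA-seq of newborn epidermis gave 6 libraries, grouped by the genotype in the labels. The authors deposited whole-number read counts and FPKM values (which take account of gene length) for 54532 genes in 1 table, and no sample column was left unused. Reads were aligned to mm10 with HISAT2 2.0.5 and counted with featureCounts 1.5.0-p3, per the submitters' processing notes. Not given in the sources used here are the strand setting, the annotation release and the handling of shared exons. FPKM was used to set levels of different genes side by side and for ratios, and CPM for each gene across libraries.

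Counts were tested with edgeR 4.0.16 in R 4.3.3: filterByExpr with a minimum count of 10 and a minimum total of 15, TMM scaling, and the robust quasi-likelihood test without a replicate block. P-values were adjusted by Benjamini-Hochberg over 16471 genes, with a threshold of 0.05. SEs were derived from the F statistic. For genes without a wild type count, folds used a floor of 3 counts per group, and genes with 1 to 3 such counts got an exact 95% interval; both cover counting error only. The labels do not say that replicates are separate animals, so p-values measure the spread between libraries, which may be technical. Libraries of 1 group differed by more than sampling noise. Deviations from the group means correlated between same-numbered wild type and knockout libraries (0.23, 0.34 and 0.18). For other pairs the correlations ran from -0.32 to 0.07. Centring on the group means makes positive values for some pairs lower those of others, so this measure cannot decide whether the numbers pair the samples. The labels do not state a pairing, and a fit with the number as a block was an alternative. On simulated data (16060 genes), 14.9% of 2-fold, 87.2% of 4-fold and 100% of 8-fold changes were recovered, with 5.77% false calls among those made. Few genes were changed in the simulation (47 to 50 tested per fold), whereas 53.8% of genes were called in the real comparison. The adjusted threshold thus acted on an unlike share of changed genes, and these rates do not carry over to the real comparison.

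The members and lists were chosen with earlier results of these data known. Named were all members, from each other pathway list up to 3 genes with the smallest adjusted p in each direction, and from each marker list the most abundant gene. Results for some genes that this rule selects are not reported here. Tyro3, C4a, Cd59b, C6, C7, C8g, C9, Plg, Gm20547, the fibrinogen genes, Kng1 and the further markers (Cd163, Elane, Mpo, Camp, and those of the endothelial, platelet, hepatocyte and adipocyte lists) were named after their values were seen. Promoters (RefSeq, GRCm38.p6) were searched on both strands over 250 bases before the start site. Alternatives were other scalings and filters, DESeq2 1.42.0, limma 3.58.1 on counts (voom) and on log2(FPKM + 1) or log2(FPKM + 0.1), and leaving out libraries.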

Additional observations from a re-analysis of the deposited data

How the results depend on the processing

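Of the 28 members fitted, 27 stayed on their side of the threshold in all 17 alternatives, and C2 lost its call in 1, without knockout replicate 2. Members called higher numbered 23 to 24 and members called lower 2, also with the replicate block (23 and 2). Over the other pathway genes the block gave 28 higher and 6 lower, against 28 and 4 without it, and over all genes 5089 higher and 4792 lower. Among members not called, F2r changed sign without knockout replicate 1 (0.16) and with both libraries numbered 1 left out (0.15), and Cd59a without knockout replicate 2 (-0.10). Upper-quartile and library-size scaling moved the median log2 fold change of all genes from -0.03 to -0.22 and -0.18; F3 and Gas6 stayed lower under both. Depth limits Cfb, Cfd and the wild type levels of C3, C4b, C5ar1, Procr, F5, F7, F10 and Tfpi2, which rest on few counts.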

Other observations

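Fga, Fgb, Fgg and Kng1, chosen after their values were seen among 27 other coagulation genes, had most of their counts in knockout replicate 3. The fibrinogen genes Fga, Fgb and Fgg had 139, 140 and 125 counts in knockout replicate 3, against 20, 21 and 12 in replicate 1 and 2, 4 and 4 in replicate 2. Kng1, which encodes kininogen, had 55 counts in knockout replicate 3, 11 in replicate 1 and 4 in replicate 2. Over the 3 wild type libraries these 4 genes had 1 count in all, from Fgb. F10 was counted in all 3 knockout libraries, with its highest level in replicate 2, and so was the hepatocyte marker Alb (97, 73 and 377 counts), highest in replicate 3. The part of hepatocyte RNA in the counts of these genes was not tested.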
